A study of Mus musculus with 1528 samples.

Results

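Arginine and polyamine metabolism was followed through 8 genes of the count table: the arginine importer *Slc7a2*, the arginine-making enzymes *Ass1* and *Asl*, the arginine-consuming enzymes *Arg1*, *Arg2* and *Nos2*, and the polyamine enzymes *Odc1* and *Sat1*. The genes were chosen by symbol, with earlier results of these data known, and all 8 had 1 row each among the 55421 genes counted. They were read in macrophages grown with CSF1 from the bone marrow (BMDMs) of C57BL/6 wild-type mice (male C57BL/6J in the study's methods), in 2 replicates that the labels number 1 and 2. The study describes 2 independent experiments; no source used here says whether these were different animals, nor their age. For 24 h the cells received IL4+IL13 (below, without TNF) or IL4+IL13+TNF (below, with TNF), at 10 ng/ml per cytokine, so that both groups had IL4 and IL13. Single cells were sorted into 4 plates of wells, plates 2 and 3 with replicate 1 and plates 4 and 5 with replicate 2, each holding both treatments, and read by Smart-seq2, which copies full-length cDNA without molecular identifiers.

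L-arginine enters macrophages mainly through cationic amino acid transporters, and is either hydrolyzed by arginases to urea and ornithine or oxidized by nitric oxide synthase to citrulline and nitric oxide. Citrulline is turned back into arginine by argininosuccinate synthase and argininosuccinate lyase, while ornithine feeds the polyamines putrescine, spermidine and spermine. *Arg1* is a classic gene of IL4- and IL13-activated mouse macrophages and *Nos2* of macrophages exposed to interferon and microbial products, and for this reason the pair is often read as opposite poles. The comparison of the treatments asked how TNF altered the transcripts of IL4+IL13–stimulated macrophages.

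Of 1524 wells with a known replicate and treatment, 1386 passed the quality filter, 690 without TNF and 696 with TNF. The kept cells had 200235 to 6122892 fragments counted on genes, with medians of 477871 and 464673. All 8 macrophage markers (*Adgre1*, *Csf1r* and others) were detected. Their summed level was 15140 and 16700 CPM without TNF and 28420 and 27240 CPM with TNF, of which *Lyz2* gave 11430 and 12680 against 24840 and 23520 CPM; *Fcgr1* (68.4 and 66.4 against at most 20.6 CPM) and *Mertk* (13.8 and 32.4 against 6.41 and 13.4 CPM) were lower with TNF. Lymphoid, stromal and endothelial markers stayed below 1 CPM each, the stromal and endothelial list summing to 0.241 and 0.166 against 0.899 and 1.46 CPM, and 1 of 6 neutrophil markers, *S100a8*, exceeded 1 CPM. The 5 dendritic cell markers summed to 8.96 and 11.7 CPM without TNF and to 31.1 and 208 CPM with TNF, of which *Ccr7* gave 21.4 and 194 CPM. The mast cell marker *Kit* was 9.93 and 2.68 CPM against 2.33 and 3.72 CPM, so that the treatments overlapped. The 2 proliferation genes *Top2a* and *Mki67* summed to 260 and 213 CPM against 126 and 113 CPM. The part of these lists in the results was not tested. On each plate the IL4+IL13 cells lay in the upper rows of wells and the IL4+IL13+TNF cells in the lower rows, so position on the plate and treatment cannot be told apart.

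Levels of the 8 genes with and without TNF were compared on sums of the kept cells, 1 sum for each replicate and treatment. Levels of sums are given as CPM after TMM scaling, and adjusted p-values come from edgeR (quasi-likelihood test, Benjamini-Hochberg adjusted over 17034 genes), with a threshold of 0.05. The p-values measure only the spread between these samples. With 2 replicates per treatment and treatment as the only term, 0 of 7 tested members passed, and 3 had an unadjusted p under 0.05. The background of this test was 1 gene of 17034 (0.00587%) past the threshold, and 1380 of the 17034 had an unadjusted p under 0.05. With the replicate as a block, 3 members passed, *Ass1*, *Slc7a2* and *Arg2*, all higher with TNF; the background was 3.82% of genes, 1.94% in that direction and 1.88% in the other. DESeq2 without the block called the same 3, and 3.51% of all genes. *Nos2* was found in too few cells to be tested.

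The same 3 members were the ones whose 4 plate values with TNF did not overlap the 4 without, which held for 6.16% of the 17034 genes in the same direction and 5.17% in the other. *Ass1*, *Slc7a2*, *Arg2*, *Asl* and *Odc1* were higher with TNF on 4 of 4 plates (18.7% of all genes) and *Sat1* was lower on 4 of 4 (16.8%). For *Odc1* the log2 difference was only 0.0097 on plate 5 and 0.052 on plate 2, and for *Asl* 0.090 on plate 2. Without TMM scaling, the mean over cells of plate 2 was lower with TNF for both. It was 12.9 against 13.4 CPM for *Odc1* and 81.6 against 85.1 CPM for *Asl*, and higher on the other plates. *Arg1* was higher on 3 plates and lower on 1.

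**Figure D1:**
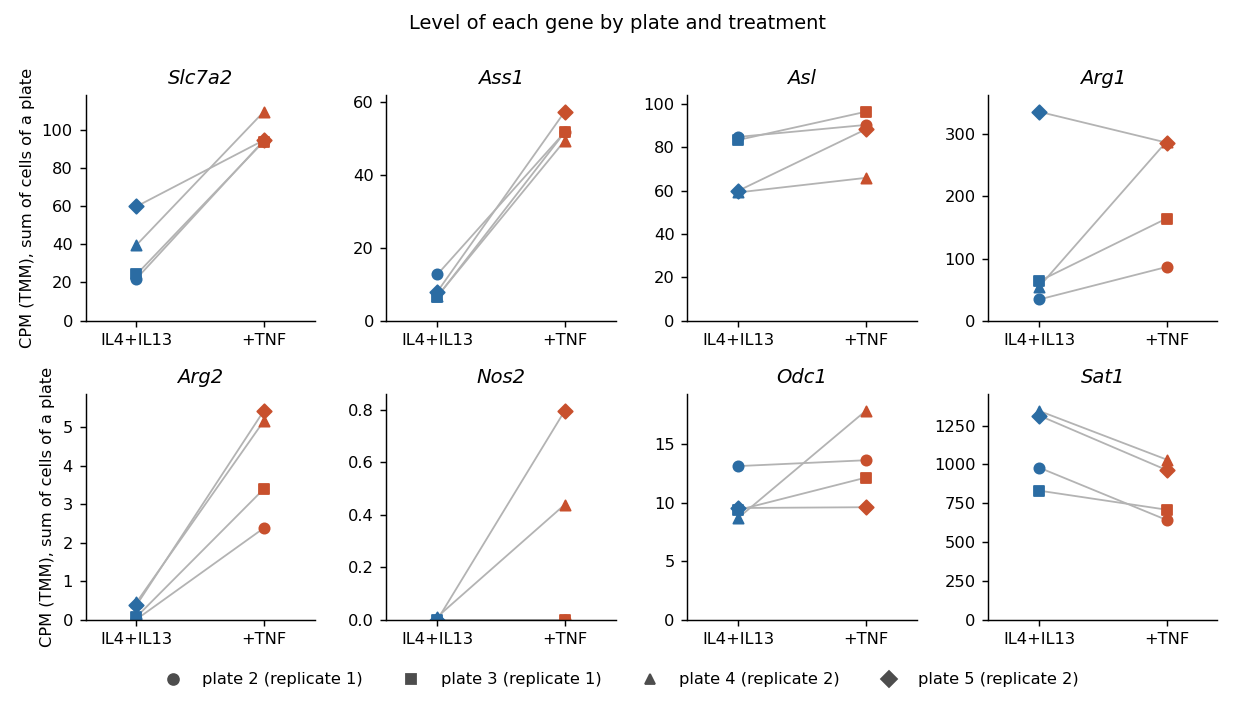
Level of each gene (CPM after TMM scaling, linear axis from 0) in the summed cells of each plate without and with TNF; each marker is 1 plate and each line joins the 2 treatments of a plate. *Slc7a2*, *Ass1* and *Arg2* separate the treatments on every plate, *Sat1* is lower on each, and *Arg1* spans 34.1 to 336 CPM across the plates without TNF.

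*Slc7a2* (ENSMUSG00000031596, chromosome 8 of mm10 from 40862396 to 40922308, plus strand) encodes the cationic amino acid transporter CAT2. Its level was 23.2 and 48.8 CPM without TNF in replicate 1 and replicate 2, and 94.3 and 101.9 CPM with TNF. By plate the values ran from 21.99 to 59.8 CPM without TNF and from 93.8 to 109 CPM with TNF. The replicates thus differed without TNF and were close to each other with TNF. The log2 fold change was 1.45 (SE 0.38, adjusted p = 0.413 by edgeR), and 1.54 with the replicate as a block (SE 0.25, adjusted p = 0.0394 by edgeR). Over all alternatives of edgeR, DESeq2 and limma the adjusted p ran from 0.0102 to 0.751, and the log2 fold change was 2.08 without the IL4+IL13 cells of replicate 2 and 1.00 without those of replicate 1.

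To compare shares, each cell was thinned to 339000 fragments, which left 1250 cells, and a cell was counted with at least 1 fragment. *Slc7a2* was found in 25.6% of cells of replicate 1 (95% exact Clopper-Pearson interval 20.99 to 30.6) and 41.4% of replicate 2 (35.9 to 47.1) without TNF. With TNF it was found in 63.7% (58.0 to 69.1) and 59.2% (53.4 to 64.7). Intervals of shares cover counting error only. The share was higher by 38.1 percentage points in replicate 1 and 17.7 in replicate 2, and unthinned shares averaged 37.9% and 67.1%. Cells that had the transcript also had more of it: their median was 10.0 and 14.2 CPM without TNF and 82.9 and 77.1 CPM with it. With 2 replicates per treatment an exact two-sided permutation test of a share cannot give a p below 0.33, so shares are described and not called.

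*Ass1* (ENSMUSG00000076441, chromosome 2 from 31470207 to 31520672, plus strand) encodes argininosuccinate synthase, which joins citrulline and aspartate in the rate-limiting step of arginine regeneration. It stood at 9.60 and 7.27 CPM without TNF and at 51.8 and 53.5 CPM with TNF, a 5.39-fold difference in replicate 1 and a 7.36-fold difference in replicate 2. Plate values lay between 6.58 and 12.7 CPM without TNF and between 49.4 and 57.3 CPM with TNF. Neither replicate nor plate brought the treatments near each other. Its log2 fold change was 2.64 (SE 0.24, adjusted p = 0.135 by edgeR; 2.65, SE 0.18, adjusted p = 0.00743 with the replicate as a block). Adjusted p ran from 1.25e-18 to 0.176 over the alternatives of edgeR, DESeq2 and limma, and the log2 fold change stayed between 2.46 and 2.85 in all 13 alternatives tried.

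Both the number of cells with *Ass1* and the level per cell were higher with TNF. At equal depth 30.7% (25.8 to 35.99) and 27.5% (22.6 to 32.9) of cells had a fragment without TNF, and 70.3% (64.8 to 75.4) and 69.9% (64.5 to 75.02) with TNF. The share was 25.9% to 33.7% by plate without TNF and 68.3% to 71.4% with TNF; unthinned shares averaged 31.6% and 70.7%. The median cell had 0 CPM in both replicates without TNF and 24.1 and 25.1 CPM with TNF. The 5% of cells with the most *Ass1* held 49.4% and 52.2% of its summed CPM without TNF and 26.0% and 27.4% with TNF, so that the transcript was spread over more cells.

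*Ass1* has a near-identical copy, *Gm5424*, which shared 55.3% of the 50-base windows of the longest annotated *Ass1* transcript. The copy was counted with more fragments than *Ass1* in each sum, 2894 against 1750 in the IL4+IL13 cells of replicate 1 and 15794 against 9397 in the IL4+IL13+TNF cells of replicate 2. Its fragments and those of *Ass1* cannot be told apart where the 2 sequences are identical. Only uniquely mapped fragments were counted. How many *Ass1* fragments were left out for this reason or placed on the copy was not tested. Summed with its copy, an alternative chosen after seeing the data, *Ass1* was 25.5 and 17.7 CPM without TNF and 146 and 143 CPM with TNF, a log2 fold change of 2.74 (SE 0.25, adjusted p = 0.14 by edgeR).

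The start of *Ass1* is shown because it was the member with the smallest adjusted p in both fits. The window covers 250 bases before and 50 bases after the RefSeq start in build GRCm38.p6, chr2:31470020-31470319, plus strand. Capitals mark an E-box (CACGTG), the palindromic letters bound by MYC and related factors, and a GC box (GGGCGG on either strand), the letters bound by SP factors.
Ass1 promoter: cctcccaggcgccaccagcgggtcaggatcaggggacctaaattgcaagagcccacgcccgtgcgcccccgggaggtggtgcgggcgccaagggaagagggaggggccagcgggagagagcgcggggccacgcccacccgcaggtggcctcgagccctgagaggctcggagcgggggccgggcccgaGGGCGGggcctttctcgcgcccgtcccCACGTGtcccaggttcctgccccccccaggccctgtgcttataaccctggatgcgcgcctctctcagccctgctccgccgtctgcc
The E-box lies 36 bases before the start. Of 32851 promoter windows of the same length, 7.15% held an E-box and 35.7% a GC box. The letters of a STAT6 site (TTCNNNNGAA, in 6.95% of windows), an AP-1 site (TGANTCA, in 7.81%), the NF-kB motif (in 4.51%) and a TATA box (TATAAA, in 13.6%) were searched on both strands and were not in this window. These matches describe the letters and not binding. RefSeq windows matched 3 of the 8 members.

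*Asl* (ENSMUSG00000025533, chromosome 5 from 130011258 to 130029247, minus strand) encodes argininosuccinate lyase, which releases arginine in the step after *Ass1*. It stood at 84.4 and 59.2 CPM without TNF and at 93.9 and 77.3 CPM with TNF. The treatments overlapped between plates, 59.2 to 84.8 CPM against 65.9 to 96.4 CPM, and replicate 1 lay above replicate 2 in both. The log2 fold change was 0.25 (SE 0.25, adjusted p = 0.896 by edgeR; 0.27, SE 0.12, adjusted p = 0.288 with the replicate as a block). Most cells had the transcript, 84.3% and 70.6% without TNF and 91.7% and 79.1% with TNF. Leaving out 1 sum at a time gave log2 fold changes of 0.02 to 0.53, with the difference between *Ass1* and *Asl* itself not tested.

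*Arg1* (ENSMUSG00000019987, chromosome 10 from 24915221 to 24927484, minus strand) encodes the cytosolic arginase. Its level was 49.5 and 186 CPM without TNF and 130 and 288 CPM with TNF. The plates without TNF held 34.1, 63.7, 54.8 and 336 CPM (plates 2 to 5) and those with TNF 86.4, 164, 288 and 287 CPM. Plate 5 alone was high without TNF, above all plates with TNF, and the other 3 plates were below all of them. Its log2 fold change was 0.83 (SE 0.70, adjusted p = 0.874 by edgeR; 1.01, SE 0.20, adjusted p = 0.0639 with the replicate as a block). It was 2.08 without the IL4+IL13 cells of replicate 2, 1.29 without the IL4+IL13+TNF cells of replicate 1, 0.16 without the IL4+IL13 cells of replicate 1 and 0.14 without the IL4+IL13+TNF cells of replicate 2.

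The level of *Arg1* rested on very few cells. On each plate and under each treatment, the 5% of cells with the most *Arg1* held 76.5% to 94.2% of its summed CPM. A single cell of plate 5 without TNF reached 16250 CPM and gave 29.1% of the *Arg1* fragments of that plate. At least 1000 CPM was found in 1, 4, 2 and 12 cells of plates 2 to 5 without TNF and in 2, 7, 10 and 8 cells with TNF. The median cell was at 0 CPM in replicate 1 under both treatments and at 1.97 and 1.86 CPM in replicate 2. The weight of each sum thus followed a small number of cells with very high *Arg1*, more of which were counted on plate 5 than on the other plates without TNF.

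The share of cells with *Arg1* was close under both treatments. With at least 1 fragment at equal depth it was 27.1% (22.4 to 32.2) and 46.9% (41.3 to 52.7) without TNF and 32.3% (27.1 to 37.9) and 48.0% (42.3 to 53.8) with TNF. The replicates differed more than the treatments. With at least 5 fragments the shares were 15.96% and 16.2% against 15.5% and 19.3%, and the replicates no longer stood apart without TNF. Unthinned shares averaged 44.5% and 48.0%. Outside the 5% of highest cells, the *Arg1* fragments of a well had a rank correlation with the summed *Arg1* fragments of the other wells of its row and column of 0.014 to 0.398 over the 8 sets of plate and treatment (median 0.216, description across cells). For the other 6 members measured on 8 sets the medians lay between 0.038 and 0.071. The part that exchange of fragments between wells has in the low *Arg1* counts was not tested.

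**Figure D2:**
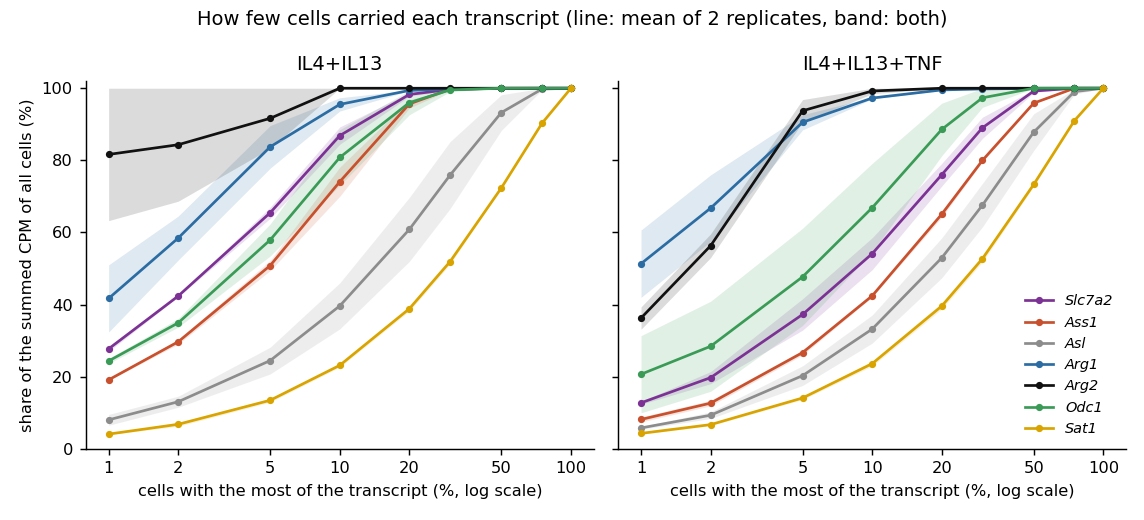
Share of the summed CPM (linear axis) held by the cells with the most of a transcript, against the percentage of cells (log axis), for each treatment; lines are the mean of 2 replicates and bands span both. With TNF, 5% of cells held 92.7% and 88.5% of *Arg1* in replicate 1 and replicate 2 but 26.0% and 27.4% of *Ass1*, and *Sat1* was the most even.

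*Arg2* (ENSMUSG00000021125, chromosome 12 from 79130777 to 79156301, plus strand) encodes the mitochondrial arginase. It was nearly absent without TNF, with 8 fragments in replicate 1 and 70 in replicate 2, and reached 460 and 931 fragments with TNF. As levels these were 0.0439 and 0.414 CPM against 2.95 and 5.29 CPM. Plate values did not overlap, at most 0.451 CPM without TNF and at least 2.38 CPM with TNF. The log2 fold change was 4.17 (SE 1.10, adjusted p = 0.413 by edgeR; 4.67, SE 0.66, adjusted p = 0.03 with the replicate as a block), and the adjusted p ran from 0.000193 to 0.81 over the alternatives of edgeR, DESeq2 and limma. Without the IL4+IL13 cells of replicate 2, which held most of the fragments without TNF, the log2 fold change was 6.53.

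Even with TNF few cells had *Arg2*. At equal depth it was found in 0.904% (0.187 to 2.62) and 6.47% (3.998 to 9.82) of cells without TNF and in 7.26% (4.61 to 10.8) and 13.4% (9.79 to 17.7) with TNF; unthinned shares averaged 5.37% and 11.2%. Genes of other tissues (*Alb*, *Ins2*, *Myh6*, *Gfap* and *Krt5*) were found in 0% to 2.64% of cells at the same depth. Only the value of replicate 1 without TNF lay within that range. With at least 5 fragments *Arg2* was in 0.324% ± 0.458 of cells without TNF and 5.91% ± 0.423 with TNF (SD, n = 2 replicates). Exons of *Vti1b* on the other strand overlap the *Arg2* exons by 285 bases, and fragments from there cannot be told apart, since the strand was not used in counting.

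**Figure D3:**
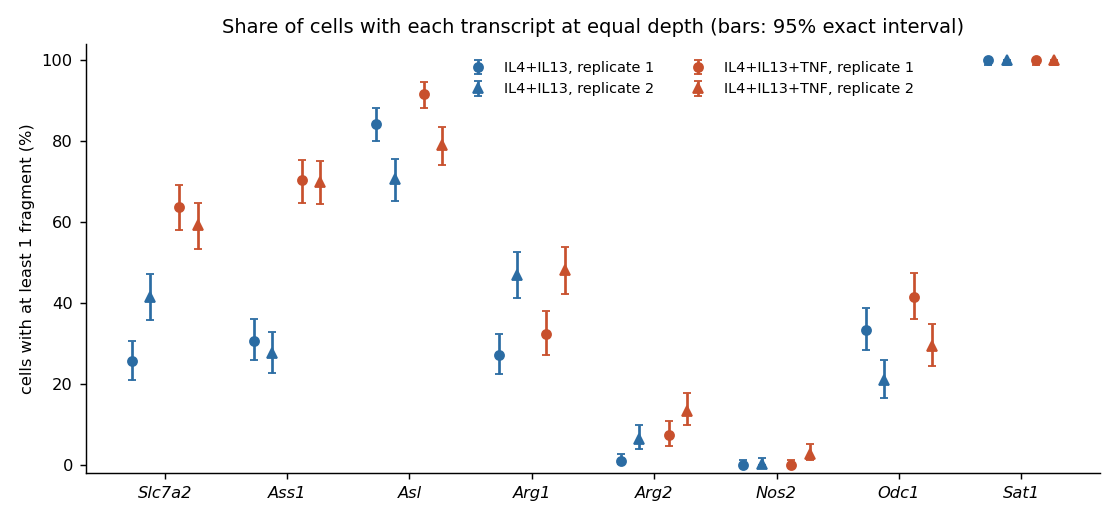
Percentage of cells in which each gene had 1 fragment or more, after thinning to equal depth (linear axis, percent), for each replicate and treatment; bars are 95% exact intervals of counting error. The pair of replicates with TNF lies above the pair without TNF for *Slc7a2*, *Ass1* and *Arg2*, whereas for *Arg1* the replicates of each treatment lie apart (27.1% and 46.9%, 32.3% and 48.0%) and the treatments overlap.

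*Nos2* (ENSMUSG00000020826, chromosome 11 from 78920787 to 78960254, plus strand) encodes the inducible nitric oxide synthase. It had 0 fragments in replicate 1 under both treatments, and 1 and 109 fragments in replicate 2 without TNF and with TNF. In replicate 2 the ratio of levels was 105. An exact interval that takes each fragment as an independent count ran from 18.4 to 4176. Amplified copies and fragments of the same cell are not independent, so this interval is too narrow. Of the 109 fragments, 70 came from a single cell of plate 5. Fragments were found in 9 cells with TNF and in 1 cell without, all of replicate 2. At equal depth the share was 2.61% (1.14 to 5.09) in replicate 2 with TNF, within the 0% to 2.64% that the genes of other tissues had over all 4 sums, and above the 0% to 1.31% that they had in the same sum, with overlapping intervals. The share by itself was not read as expression. The 0 of 303 cells of replicate 1 with TNF allow a share of cells with a fragment of up to 0.99% by the rule of 3 counts and 1.21% by the exact interval.

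*Arg1* and *Nos2* were rarely in the same cell. At equal depth, 0 of 641 cells without TNF had both, which allows a share of up to 0.468% by the rule of 3 counts and 0.574% by the exact interval, and 2 of 609 cells with TNF had both. *Arg1* was in 245 and *Nos2* in 8 of those 609 cells, and the product of the 2 shares gives 3.22 cells with both, or 3.84 within replicate 2, which held all 8. With at least 5 fragments of each, *Nos2* was in 3 cells and none of them reached 5 fragments of *Arg1*, where the product gives 0.522. Before thinning, the cell with 70 *Nos2* fragments had 1.82 CPM of *Arg1*. No cell was high in both: *Arg1* was at most 2.02 CPM in the 10 cells with *Nos2* before thinning. Low *Arg1* was also common among all cells of replicate 2 with TNF. Their median was 1.86 CPM, and 22.1% had at least 10 CPM. At 10 CPM of each, the product of the shares in that sum gives 0.662 cells with both. *Ass1* was found in 8 of the 9 *Nos2* cells with TNF, and reached 378 CPM in the cell with 127 CPM of *Nos2*, while *Slc7a2* was found in 7 of the 9. Among all cells of the same sum, 70.8% had *Ass1* and 66.8% *Slc7a2* before thinning.

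**Figure D4:**
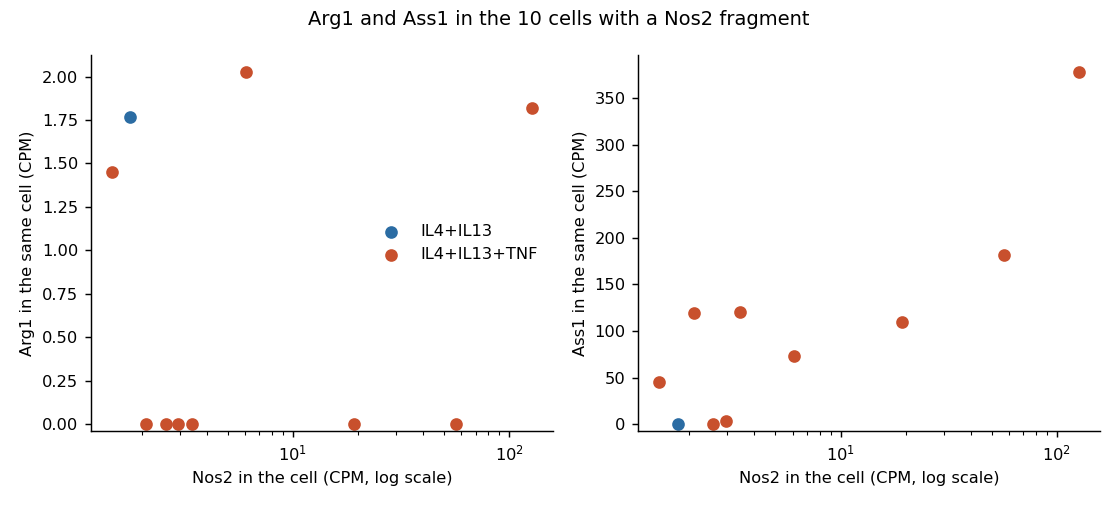
*Arg1* (left) and *Ass1* (right) against *Nos2* in the 10 cells with at least 1 *Nos2* fragment before thinning; each point is a cell, in CPM, with *Nos2* on a log axis and the other gene on a linear axis. *Arg1* stays at or below 2.02 CPM in all 10 cells, and the median of all cells of replicate 2 with TNF was 1.86 CPM. *Ass1* reaches 378 CPM in the cell with the most *Nos2*.

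*Odc1* (ENSMUSG00000011179, chromosome 12 from 17544794 to 17551505, plus strand) encodes ornithine decarboxylase, which makes putrescine from ornithine. Its level was 11.3 and 9.06 CPM without TNF and 12.8 and 13.7 CPM with TNF. Plates overlapped, 8.72 to 13.15 CPM without TNF and 9.63 to 17.9 CPM with TNF. A single cell gave 10.6% to 19.3% of the *Odc1* fragments of a plate without TNF and 6.3% to 32.7% with TNF. The 32.7% belonged to plate 4, at 17.9 CPM, where the unscaled mean over cells was 12.05 CPM. The log2 fold change of *Odc1* was 0.38 (SE 0.25, adjusted p = 0.808 by edgeR) and 0.39 with the replicate as a block (SE 0.21, adjusted p = 0.362 by edgeR). The share of cells at equal depth was 33.4% and 21.04% without TNF and 41.6% and 29.4% with TNF. *Odc1* has 9 copies elsewhere that share at least 5% of its windows, and these took 45.4% to 56.9% of the summed fragments. With the copies added the log2 fold change was 0.19 (SE 0.24, adjusted p = 0.93 by edgeR).

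*Sat1* (ENSMUSG00000025283, chromosome X from 155213132 to 155216449, minus strand) encodes spermidine/spermine N1-acetyltransferase, the enzyme that marks polyamines for breakdown or export. Its level was 908 and 1323 CPM without TNF and 681 and 999 CPM with TNF. Within each plate it was lower with TNF, by 0.23 to 0.61 on the log2 scale, yet the plates of replicate 2 with TNF (964 and 1032 CPM) overlapped those of replicate 1 without (832 and 980 CPM). The log2 fold change was −0.41 in both fits, with an SE of 0.28 and adjusted p = 0.818 by edgeR, and an SE of 0.08 and adjusted p = 0.0601 with the replicate as a block. All cells had a *Sat1* fragment at equal depth. The median cell had 781 and 1246 CPM without TNF and 582 and 798 CPM with TNF, and the 5% of highest cells held 12.5% to 15.8% of the summed CPM on each plate. The lower level of *Sat1* was thus also seen in the median cell. Its copies *Gm5552* and *Gm46610* took 17.3% to 19.5% of the summed fragments, and with them added the log2 fold change was −0.40 (SE 0.26, adjusted p = 0.808 by edgeR).

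The *Sat1* start is shown beside that of *Ass1* as the one tested member that was lower with TNF on 4 of 4 plates (GRCm38.p6, chrX:155216400-155216699, minus strand, GC boxes in capitals, no other searched motif in the window).
Sat1 promoter: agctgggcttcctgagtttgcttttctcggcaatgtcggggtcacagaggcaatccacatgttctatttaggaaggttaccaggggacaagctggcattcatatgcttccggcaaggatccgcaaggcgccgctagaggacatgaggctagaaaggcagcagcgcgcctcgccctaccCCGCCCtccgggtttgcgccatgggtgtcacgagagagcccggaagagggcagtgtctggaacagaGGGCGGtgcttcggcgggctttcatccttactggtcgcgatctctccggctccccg
The *Sat1* window is 60.3% G and C and that of *Ass1* 74%.

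Compared per kilobase of exon, without the fragments of near-identical copies, the order of levels without TNF was *Sat1* (402 CPM per kb, mean of 2 replicates), *Arg1* (52.9), *Asl* (14.9), *Slc7a2* (3.94), *Ass1* (3.49), *Odc1* (2.99), *Arg2* (0.16) and *Nos2* (0.000667). *Slc7a2* overlapped *Ass1* between the replicates, and *Ass1* overlapped *Odc1*; the other neighbors did not overlap. With TNF *Ass1*, at 21.8 CPM per kb, was next after *Arg1*, above *Asl* at 17.7 and *Slc7a2* at 10.7. *Arg2*, at 2.89 CPM per kb, came close to *Odc1* at 3.899 and remained below it in both replicates. In CPM per kilobase of exon, *Arg1* was 32.5 times *Arg2* with TNF. The length was that of all annotated exons of a gene, 2414 bases for *Ass1* and 4831 for *Asl*. Their longest annotated coding transcripts have 1696 and 2413 bases. The order of *Ass1* and *Asl*, that of other genes with close levels, and the ratio of *Arg1* to *Arg2* therefore depend on the length used.

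Across the cells of a plate and treatment, the correlations between members were weak. For the 21 pairs without *Nos2*, the Spearman correlation averaged over the 8 sets lay between −0.105 and 0.116, and 19 of 21 were within 0.1 of 0. The highest was *Arg1* with *Slc7a2* (0.116, range 0.0248 to 0.279) and the lowest *Ass1* with *Slc7a2* (−0.105, range −0.27 to 0.048). Correlations across cells are descriptions, since the cells share libraries and depth. The importer and the synthase, both higher with TNF in the sums, had no positive mean correlation across single cells.

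The genes most like a member across cells were sought among all 17034 tested for the 6 members found in at least 25% of cells, which left out *Arg2* and *Nos2*. For *Ass1* these were its copy *Gm5424* (mean Spearman correlation 0.817), *Lsp1* (0.278) and *Emb* (0.255). For *Sat1* they were its copies *Gm5552* (0.922) and *Gm46610* (0.891), then *Pld4* (0.226), and for *Odc1* the 3 were copies with 0.570 to 0.617, *Gm17709*, *Gm9115* and *Gm9260*. *Slc7a2* was most like the lysosomal genes *Atp6v0d2* and *Ctsl* (0.217 each) and *Lipn* (0.195). The 3 for *Arg1* were *Msx3*, *Mif* and *C230062I16Rik* (0.179 to 0.192), and those for *Asl* were *Copz1*, *Gm1821* and *Aldoart1* (0.143 to 0.155). Over the 8 sets, *Slc7a2* with *Atp6v0d2* ran from 0.029 to 0.351 and *Arg1* with *Msx3* from 0.090 to 0.313. Apart from the copies, none of the genes named here was a close partner, with means of at most 0.278.

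Proliferation genes differed with the treatment, so the members were also summed within cells that had at least 10 CPM of both *Top2a* and *Mki67* and within the others. These cells were 28.3% and 14.4% of the cells without TNF and 14.99% and 9.74% with TNF. *Slc7a2* was lower in them in all 4 sums, at 0.569 to 0.682 of the level in other cells, and so was *Sat1*, at 0.699 to 0.882. *Arg1* ranged from 0.0918 to 3.08 and showed no order. In the other cells *Ass1* was 9.59 and 6.40 CPM without TNF and 44.4 and 52.4 CPM with TNF (unscaled CPM), *Slc7a2* 26.9 and 54.2 against 94.6 and 102.4 CPM and *Arg2* 0.0613 and 0.485 against 2.80 and 3.81 CPM. The cut is a range of levels, and cells below it are not shown to be outside the cell cycle. *Ccr7* made up most of the sum of dendritic cell markers with TNF. Cells with at least 10 CPM of *Ccr7* numbered 0 and 0 without TNF and 2 and 16 with TNF. Without these cells *Ass1* was 49.5 and 50.2 CPM, *Slc7a2* 90.9 and 103 CPM and *Arg2* 2.85 and 5.41 CPM with TNF.

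Around the 8 members, 49 other genes of arginine transport, the urea cycle, nitric oxide, ornithine use and polyamines were listed, of which 37 were tested. None passed with treatment as the only term by edgeR's quasi-likelihood test. An unadjusted p under 0.05 was found for 3 of the 37, beside 1380 of all 17034 genes. DESeq2 called 2, beside 3.51% of all genes. The median log2 fold change of the 37 was −0.04, against 0.83 for the 7 tested members and 0.004 for all genes. Members and lists were chosen with earlier results of these data known, so this contrast is a description only. With the replicate as a block 3 of 37 passed, 2 higher and 1 lower with TNF, beside 3.82% of all genes (1.94% higher, 1.88% lower). On 4 of 4 plates 6 of the 37 were higher and 7 lower, beside 18.7% and 16.8% of all genes, so that these counts lay near the background.

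*Gatm*, which uses arginine to begin creatine synthesis, was the one lower gene, at 209 and 165 CPM without TNF and 89.9 and 88.0 CPM with TNF (log2 fold change −1.06 with the replicate as a block, SE 0.12, adjusted p = 0.0197 by edgeR). *Gch1*, which starts the synthesis of tetrahydrobiopterin, a cofactor of nitric oxide synthase, was 22.98 and 23.5 CPM against 39.1 and 48.5 CPM (0.91, SE 0.14, adjusted p = 0.0394 by edgeR with the block). *Eif5a*, the translation factor that carries the spermidine-derived amino acid hypusine, was 840 and 487 CPM against 1376 and 864 CPM (0.77, SE 0.08, adjusted p = 0.0171 by edgeR with the block). Without the block their adjusted p-values were 0.245, 0.35 and 0.688 by edgeR.

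**Figure D5:**
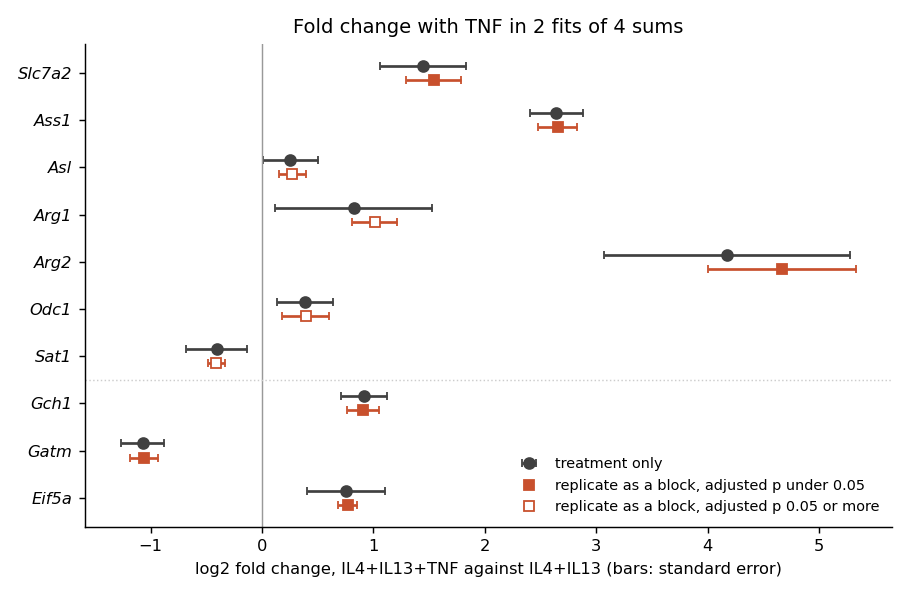
Log2 fold change of IL4+IL13+TNF against IL4+IL13 for the 7 tested members (above the dotted line) and the 3 other pathway genes that passed with the replicate as a block; circles are the fit with treatment only, squares the fit with the replicate as a block (filled where adjusted p is under 0.05), bars are standard errors. *Arg2* (4.67) and *Ass1* (2.65) lie farthest to the right with the block, and *Gatm* (−1.06) and *Sat1* (−0.41) to the left of 0.

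By group, 17 of the 19 other polyamine genes were tested, with 2 higher and 5 lower on 4 of 4 plates (18.7% and 16.8% of all genes) and a median log2 fold change of −0.08. Of the 5 other arginine transport genes 4 were tested, 2 of them higher on 4 of 4 plates. Of the 5 other urea cycle genes 1 could be tested, and it did not pass. In the 6 tested genes of proline and glutamate synthesis from ornithine, 0 had the same direction on 4 of 4 plates.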

How the data were processed

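Smart-seq2 libraries of single BMDMs were sorted into plates after live/dead staining. The authors used gsnap to align fragments to mm10, aided by Ensembl 98 splice sites, and deposited counts of uniquely mapped fragments per Ensembl 98 gene and well from featureCounts 1.6.3, counted without strand. The submitters' processing notes also name bcl2fastq 2.19.1 and Seurat 3. The deposited counts are whole numbers without normalization, and no molecular identifiers were used, so that amplified copies are counted. Of 55421 genes, 55154 matched a symbol, and 92 spike-in rows were left out of totals and tests. Replicate number, treatment, plate and well came from the labels; 8 columns that match no label were not used, and 4 samples whose labels give no replicate number were put in no group, 3 of which had a column.

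Wells more than 3 median absolute deviations from the plate's median, low in fragments or genes or high in mitochondrial or spike-in share, were left out, which kept 1386 of 1524. No 2 wells were identical, and no doublet caller was run because cells were sorted singly. The kept cells were summed to 162260282 to 179757666 fragments per replicate and treatment.

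Sums were tested with edgeR 4.0.16 (quasi-likelihood, TMM, Benjamini-Hochberg, threshold 0.05) in R 4.3.3 on 17034 genes found in at least 5% of cells of either treatment and passing filterByExpr, with treatment as the only term. The alternatives were the replicate number as a block, DESeq2 1.42.0, limma 3.58.1 on mean log2(CPM + 1), library size or spike-ins in place of TMM, no gene filter, a fixed or no cell filter, each sum left out, and near-identical copies added. Where 1 sum of a treatment is left out, its lone remaining sum is taken to be as variable as the other group. Deviations of the same-numbered sums from the treatment means correlated at 0.563 over 17034 genes, and same-numbered sums share their plates, so the number was taken to pair them. Shares used cells thinned to 339000 fragments; 136 shallower cells were left out. CPM of sums is TMM-scaled and CPM of single cells is not. Log2 differences per plate used 0.5 CPM added. Both edgeR fits were tested on simulated data. The simulated counts held no replicate effect, so this check does not cover that setting of these data. Python 3.11.15 with scipy 1.17.1 was used for the rest.

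The named genes are the 8 members, the pathway genes past the threshold in either edgeR fit, and the 3 genes most correlated across cells with each member found in at least 25% of cells. The members and gene lists were chosen with earlier results of these data known.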

Additional observations from a re-analysis of the deposited data

Results flagged for a closer look

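Of 16 sets of 4 plates (8 genes under each treatment), 3 had a plate whose gap to the nearest of the others, divided by the range of the set, exceeded Dixon's 95% critical value; chance gives about 1 in 20. For *Arg1* with IL4+IL13 the ratio was 0.902, with plate 5 at 336 CPM and the others at 34.1, 63.7 and 54.8 CPM. For *Slc7a2* with IL4+IL13+TNF it was 0.956, with plate 4 at 109 CPM and the others at 93.8 to 94.5 CPM. For *Nos2* with IL4+IL13 it was 1, from 1 fragment on plate 4 and 0 on the others, where the ratio is 1 by construction and says nothing beyond that count.

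The 3 wells whose labels name IL4+IL13 but no replicate entered no comparison. In all 3, *Ass1* and *Slc7a2* were above the mean of the IL4+IL13 cells of both replicates. The lowest of the 3 was 11.5 CPM for *Ass1*, from 1 fragment in a well of 87198, and 56.4 CPM for *Slc7a2*, from 20 fragments. The other wells had 5 and 8 *Ass1* fragments.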

How the results depend on the processing

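All 7 tested members kept the direction of their log2 fold change in 13 of 13 alternatives. The alternatives drew on the same 2 replicates and largely the same cells, so they are not independent. The share of all genes that kept their direction was not counted. With the replicate block, 3 members passed against 0 without, 651 genes against 1, and 3 other pathway genes against 0; the log2 fold changes were 4.67 for *Arg2* (adjusted p = 0.03), 2.65 for *Ass1* (0.00743) and 1.54 for *Slc7a2* (0.0394), by edgeR's quasi-likelihood test, and the block changed no other member's call. DESeq2 called 3 members, 598 genes and 2 other pathway genes, with 4.16 for *Arg2* (adjusted p = 0.000193), 2.63 for *Ass1* (1.25e-18) and 1.44 for *Slc7a2* (0.0102). Spike-in scaling called 12 genes and moved the median of all genes to 0.153; limma called 0 genes, with 1032 at an unadjusted p under 0.05. Leaving out each sum called 4 to 30 genes and none of the members, and gave log2 fold changes of 0.14 to 2.08 for *Arg1*, 3.31 to 6.53 for *Arg2*, 2.46 to 2.85 for *Ass1*, 1.00 to 2.08 for *Slc7a2*, 0.02 to 0.53 for *Asl*, 0.24 to 0.55 for *Odc1* and −0.71 to −0.11 for *Sat1*. The difference in share of cells was 39.1 percentage points for *Ass1* without thinning against 41.0 with it, 17.7 and 38.1 for *Slc7a2* in either replicate alone, and −0.178 (at least 5 fragments) and −0.147 (at least 10 CPM) for *Sat1* against 0. Cells with both *Arg1* and *Nos2* numbered 1 with IL4+IL13 without thinning, and 0 with IL4+IL13+TNF at 5 fragments or at 10 CPM. The causes of these changes were not tested. Few *Nos2* fragments were counted at either depth (2.61% of cells of replicate 2 with TNF at equal depth, 2.58% without thinning), and the exact permutation test of a share cannot pass with 2 replicates; no other test of shares was run.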

Other observations

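The 3 wells without a replicate number lay at the same position of plates 3, 4 and 5, in the rows that held IL4+IL13+TNF cells, although their labels name IL4+IL13. They had 279461, 354874 and 87198 fragments and 10802, 11121 and 8314 detected genes, where the single cells kept had medians of 7308 to 8173 genes by plate and treatment. Whether these wells held single cells is not given in the sources used here. *Arg1* was 100, 62.0 and 22.9 CPM, *Slc7a2* 100, 56.4 and 161 CPM, *Ass1* 17.9, 22.5 and 11.5 CPM and *Sat1* 333, 581 and 126 CPM. *Nos2* had 2 fragments in the first well and 0 in the others, and *Arg2* 0 in all 3.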
